A study of Sus scrofa with 30 samples.

Results

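NNAT, PEG3, NAP1L5, NDN and MAGEL2 are 5 imprinted genes, taken here from 19484 protein-coding genes on pig chromosomes 1 to 18 and X. They were chosen by their H3K4me3 peaks (trimethylation of histone H3 at lysine 4), which were absent at their ends in metaphase II (MII) oocytes or 2-cell embryos and present later. Their H3K4me3 covered lengths across the stages are therefore a description and carry no test. The choice did not use H3K27me3, the trimethylation of lysine 27, which was tested. It did not use the knockdown libraries either, but the untreated 4-cell libraries set against them are among the stages that chose the genes.

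Chromatin from very few cells was profiled by native chromatin immunoprecipitation with sequencing (ULI-NChIP-seq) in pig (Sus scrofa) oocytes and in embryos from fertilisation in vitro. H3K4me3 was profiled at 8 stages. These were oocytes with a germinal vesicle (GV) and at MII, embryos of 1, 2, 4 and 8 cells, the morula and the blastocyst. H3K27me3 was profiled at 6 of them, without the GV and 1-cell stages. A further H3K4me3 group, siKDM5BC, was 4-cell embryos whose zygotes had been injected with siRNA to pig KDM5B and KDM5C, both demethylases of H3K4. Each of the 15 groups had 2 libraries, 30 in all. The labels name no breed or parental strain, no control siRNA library, and no origin of the replicates, so every p-value here reflects the spread of these libraries only, which may be technical. The libraries pool cells and do not separate alleles, so a peak on a single allele, or in only some cells, cannot be told apart from a peak everywhere.

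Imprinted genes are expressed from the allele of only one parent. For many paternally expressed genes, DNA methylation laid down at a control region in the growing oocyte keeps the maternal copy silent, and the unmethylated paternal copy is active. H3K4me3 marks active and poised promoters and hinders new DNA methylation, whereas H3K27me3 is deposited by Polycomb complexes at repressed genes. All 5 genes are known in mouse and human as paternally expressed. NNAT encodes neuronatin, a small membrane proteolipid. PEG3 encodes a zinc finger protein that affects growth and maternal behaviour. NAP1L5 is an intronless gene of the nucleosome assembly protein family. NDN (necdin) and MAGEL2 encode MAGE-family proteins and belong to the Prader-Willi domain.

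Positions are those of the susScr11 build. NNAT is at chr17:40625990-40629523, inside BLCAP. PEG3 is at chr6:61281931-61307788, and the uncharacterised coding gene LOC110261077 begins 96 bp beyond its higher end. NAP1L5 is at chr8:130364566-130365464, inside HERC3. NDN, at chr1:142412688-142413665, and MAGEL2, at chr1:142450414-142454633, have 36748 bp between them. MKRN3, a further imprinted gene of the Prader-Willi domain, lies beyond MAGEL2. Ends are named lower and higher by coordinate, because the gene table carries no strand.

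The value per library is the peak-covered length, in bp, of the 10001 bp window that reaches 5 kb to either side of a gene end, taken at the end with more covered bp. A gene was called marked when a peak came within 1 kb of either end. A gain between 2 groups was called when the earlier group had 0 of its libraries marked and the later group had both. A loss was the reverse. The deposited H3K4me3 lists held 37481 to 119878 peaks, covering 31.6 to 179 Mb. The H3K27me3 lists held 2358 to 80700 peaks, covering 1.28 to 109 Mb. Read totals are not given in the lists, so depth is unknown. At least 1 H3K4me3 peak lay within 1 kb of a gene end for 60.4% to 80.5% of coding genes, depending on the library. For H3K27me3 that share was 0.457% to 26.5%. Both 2-cell H3K27me3 lists were at its low end. Of 5 cumulus and granulosa cell markers, 0 to 3 were marked by H3K4me3 in both libraries of a group. The same counts were 0 to 5 of 6 oocyte markers (5 in GV oocytes, 0 in 4-cell embryos), 2 to 4 of 5 pluripotency markers, 4 to 6 of 6 trophectoderm markers and 8 to 10 of 12 imprint regulators.

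The name "genes gaining H3K4me3 after fertilisation" held in full for NAP1L5, unmarked in all 4 oocyte libraries and marked in both blastocyst libraries. By the call within 1 kb it held for PEG3 too. However, GV replicate 1 had a 380 bp peak there, at chr6:61305705-61306084, farther than 1 kb from the gene end but within the later peaks. For the others it held only in part. NDN was marked in both GV oocyte libraries and in neither MII library. MAGEL2 was marked in both GV and both MII libraries and in neither 2-cell library. NNAT was unmarked in the oocyte libraries, but 3 of those 4 libraries had a peak at the higher end of the surrounding gene BLCAP, within the 5 kb window of NNAT.

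From MII oocyte to blastocyst NNAT, PEG3, NAP1L5 and NDN were called gained, 4 of the 5 genes. Among all coding genes 6.15% were called gained between the same groups. From the 2-cell to the 4-cell stage MAGEL2 was the only one of the 5 called gained, against 0.806% of all coding genes. These calls chose the genes, so nothing is read from the counts. Among 40 other listed imprinted genes, DIRAS3, KLF14 and PON3 were called gained from MII oocyte to blastocyst. DIRAS3, a small GTPase gene, covered 0 bp in both MII libraries and 3114 and 2958 bp in blastocysts. KLF14, a zinc finger gene, was at 0 and 0 bp and then at 1735 and 1693 bp. PON3, a paraoxonase gene, was at 0 and 0 bp and then at 262 and 849 bp. MKRN3 was the only other imprinted gene called gained from the 2-cell to the 4-cell stage.

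**Figure D1:**
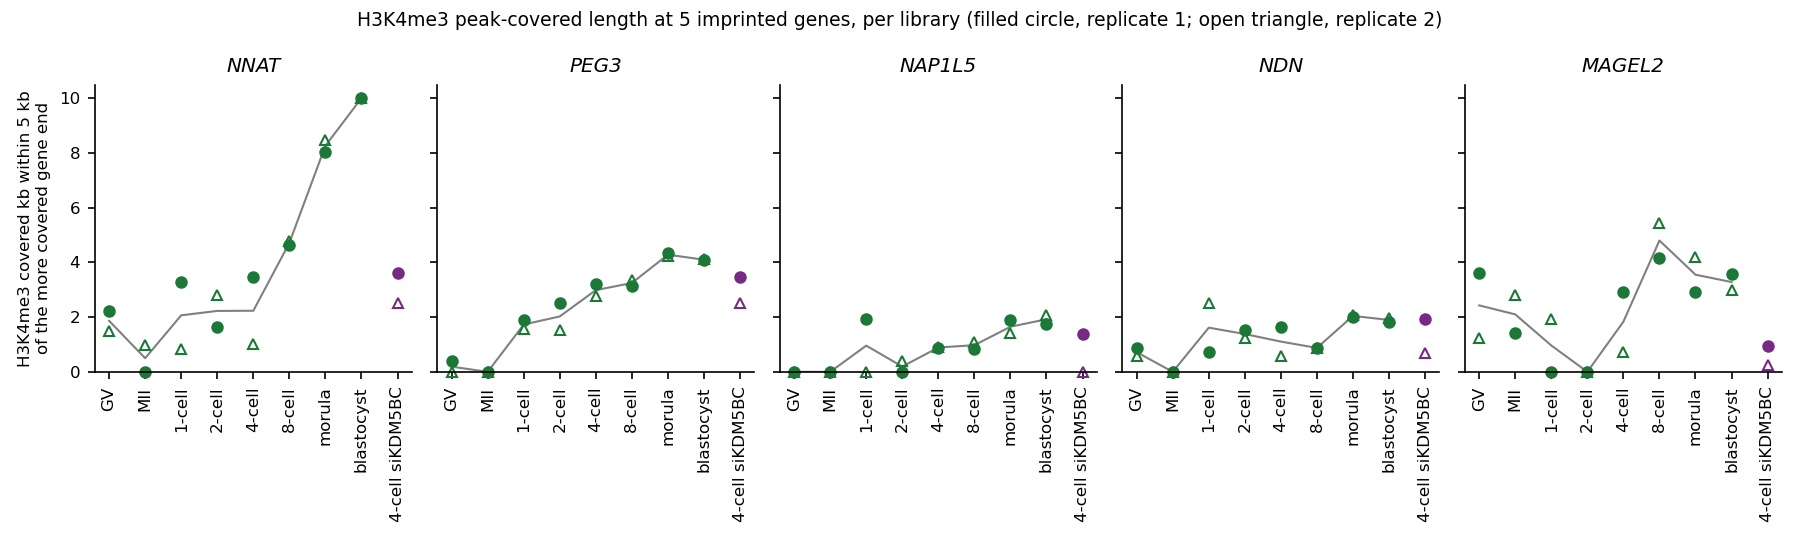
H3K4me3 peak-covered kb within 5 kb of the more covered gene end (y axis) for each library of the 8 stages and the siKDM5BC group (x axis). Circles are replicate 1, triangles replicate 2, and the grey line joins the means of the 8 untreated stages. NNAT fills its window in both blastocyst libraries (10001 bp), PEG3 and NDN are at 0 in both MII libraries, and MAGEL2 is at 0 in both 2-cell libraries.

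NNAT had the widest H3K4me3 of the 5 genes in morulae and blastocysts. Covered length in replicates 1 and 2 was 2235 and 1494 bp in GV oocytes, 0 and 998 bp in MII oocytes, 3281 and 850 bp at the 1-cell stage and 1648 and 2805 bp at the 2-cell stage. It was 3450 and 1015 bp at the 4-cell stage, 4623 and 4797 bp at the 8-cell stage, 8051 and 8473 bp in morulae and 10001 and 10001 bp, the whole window, in blastocysts. The libraries of the GV, 1-cell, 2-cell and 4-cell stages overlapped in their order of group means, whereas 8-cell, morula and blastocyst did not overlap with their neighbours.

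Most of this coverage lay at 2 sites, which had separate peaks up to the 8-cell stage. The first, at the higher end of BLCAP, was already covered in both GV libraries at chr17:40633030-40634523. The second lay within NNAT, and the stretch covered in all 8 untreated libraries from the 4-cell stage on was chr17:40626951-40627441, 961 to 1451 bp above the lower gene end. The GV replicate 1 peak at chr17:40627200-40627621 overlapped this stretch, and GV replicate 2 had no peak there. At the 1-cell stage, replicate 1 had a further peak of 1760 bp between the sites, across the higher end of NNAT, which made up much of its 3281 bp. In morulae a single peak of 8218 and 8870 bp joined both sites, and in blastocysts a single peak of 11167 and 12075 bp did. BLCAP, which encodes an apoptosis-associated protein, was marked in both libraries of every H3K4me3 group except MII oocytes, where 1 library was marked. The nearest MII peak to NNAT was 26003 bp away in replicate 1 and 3581 bp away in replicate 2.

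PEG3 had more H3K4me3 at the higher than at the lower gene end in every library with a peak except 2-cell replicate 2, where the ends were at 1482 and 1525 bp. Covered length was 380 and 0 bp in GV oocytes, 0 and 0 bp in MII oocytes, 1880 and 1579 bp at the 1-cell stage and 2525 and 1525 bp at the 2-cell stage. It was 3195 and 2778 bp at the 4-cell stage, 3122 and 3371 bp at the 8-cell stage, 4337 and 4225 bp in morulae and 4070 and 4126 bp in blastocysts. Every embryo library lay above both oocyte stages, and 4-cell and later libraries all exceeded the 2-cell ones. The morula mean was 4281 bp ± 79.2 (SD, n = 2) and the blastocyst mean 4098 bp ± 39.6 (SD, n = 2), so the replicates of these stages were close.

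The stretch of PEG3 covered in all 8 libraries from the 4-cell stage on was chr6:61305281-61307778, just inside the higher end. The 380 bp peak of GV replicate 1 lay within this stretch. The window of the higher end is shared with LOC110261077, so the peak of the later stages cannot be assigned to either gene alone. PEG3 also had peaks nearer the lower end, inside the gene, in both libraries of the 1-cell, 2-cell, 4-cell and 8-cell stages. Those of the 1-cell libraries did not overlap each other. Several reached into the window of the lower end, which was covered for 2429 and 1300 bp at the 4-cell stage. At the 4-cell stage both libraries covered 3 internal stretches between 3701 and 11388 bp above the lower end. Neither the morula nor the blastocyst libraries had an internal peak there. The nearest MII oocyte peaks to an end of PEG3 were 10481 and 7724 bp away.

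NAP1L5 had no H3K4me3 peak in oocytes and a peak in only 1 library each of the 1-cell and 2-cell stages. Covered length was 0 bp in both libraries of GV and of MII oocytes, 1916 and 0 bp at the 1-cell stage and 0 and 386 bp at the 2-cell stage. It was 862 and 918 bp at the 4-cell stage, 852 and 1098 bp at the 8-cell stage, 1885 and 1411 bp in morulae and 1759 and 2085 bp in blastocysts. Only from the 4-cell stage on were both libraries of a stage marked. HERC3, the ubiquitin ligase gene around it, was marked in both GV libraries and 1 of the MII libraries, with peaks at its own ends. In MII oocytes the nearest peaks to NAP1L5 were 85791 and 86343 bp away.

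NDN was marked in GV oocytes, unmarked in MII oocytes and marked again in every later library. Covered length was 863 and 575 bp in GV oocytes, 0 and 0 bp in MII oocytes, 730 and 2499 bp at the 1-cell stage and 1523 and 1241 bp at the 2-cell stage. It was 1636 and 576 bp at the 4-cell stage, 876 and 874 bp at the 8-cell stage, 2020 and 2069 bp in morulae and 1830 and 1963 bp in blastocysts. The pattern of marked GV, unmarked MII and marked 1-cell libraries was met by 1.21% of all coding genes and by KLF14 alone among the 40 other imprinted genes. KLF14 covered 1293 and 1198 bp in GV oocytes, 0 bp in both MII libraries, and then 937 and 540 bp at the 1-cell stage. GV to MII losses were called for 2.04% of coding genes, with NDN the only one of the 5, and MII to 1-cell gains for 2.69%, with PEG3 and NDN among them. NPAP1, the other listed gene called gained at that step besides KLF14, was at 0 and 0 bp and then at 1803 and 513 bp.

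At NDN the peak lay at the lower gene end throughout. Both GV libraries covered chr1:142412307-142412881, and all 8 libraries from the 4-cell stage on covered chr1:142412351-142412926. The position was thus shared by the oocyte and the embryo peaks. The nearest MII peaks were 36442 and 36981 bp away.

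MAGEL2 was present in oocytes, absent at the 2-cell stage and present again from the 4-cell stage. Covered length was 3610 and 1246 bp in GV oocytes, 1407 and 2793 bp in MII oocytes, 0 and 1929 bp at the 1-cell stage and 0 and 0 bp at the 2-cell stage. It was 2933 and 732 bp at the 4-cell stage, 4173 and 5425 bp at the 8-cell stage, 2908 and 4193 bp in morulae and 3584 and 2980 bp in blastocysts. Marked MII, unmarked 2-cell and marked 4-cell libraries were found for 0.277% of all coding genes, and MAGEL2 and MKRN3 were the only ones among these 5 and the 40 other imprinted genes. MKRN3, a makorin RING-finger gene 37456 bp from MAGEL2, was at 1345 and 1820 bp in MII oocytes. It was at 0 bp in all 4 libraries of the 1-cell and 2-cell stages, and at 1024 and 515 bp at the 4-cell stage. NDN, on the other side of MAGEL2, had the opposite order, with 0 bp in MII oocytes and peaks in all 4 libraries of the 1-cell and 2-cell stages. At the 2-cell stage the nearest peaks to MAGEL2 were 36769 and 36871 bp away.

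The oocyte and embryo peaks of MAGEL2 overlapped only in part. Both MII libraries covered chr1:142450646-142451513. The stretch shared by all 8 libraries from the 4-cell stage on was 96 bp long, at chr1:142450464-142450559, since 4-cell replicate 2 had 2 short peaks. Blastocyst libraries both covered chr1:142449038-142452017, from 1376 bp below the lower end to 1603 bp above it.

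**Figure D2:**
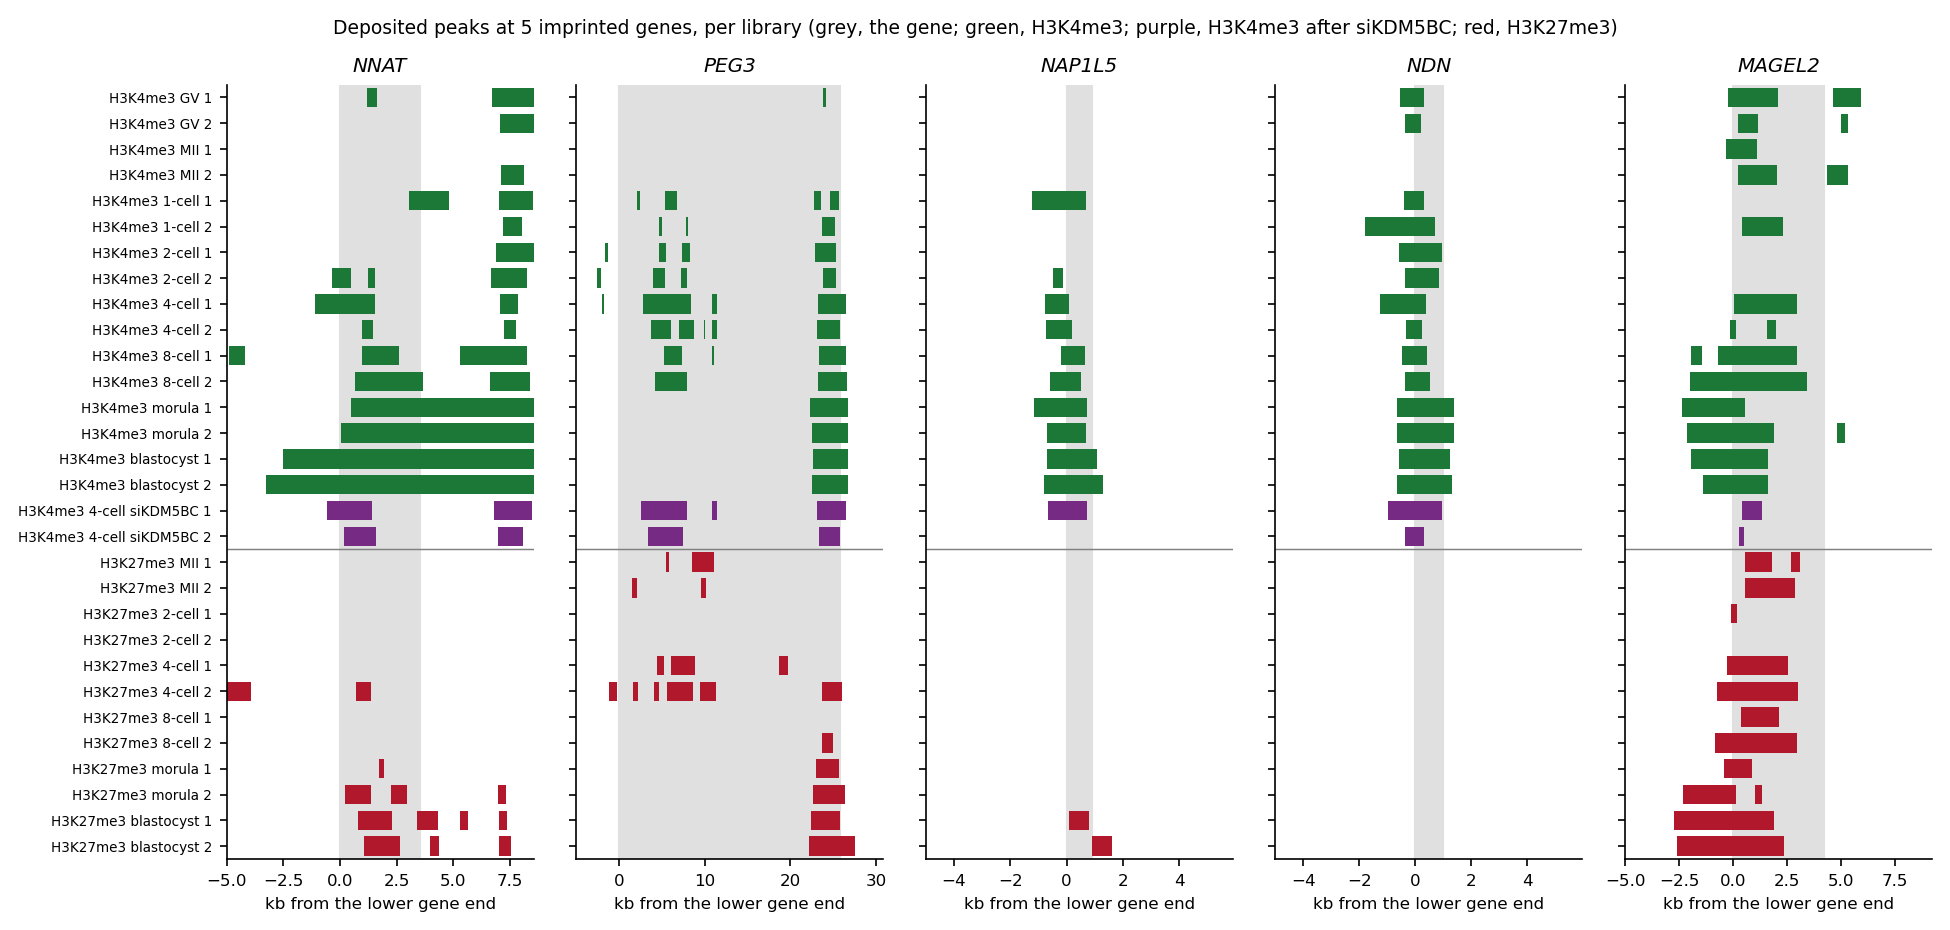
Deposited peaks of every library (rows) at the 5 genes, by distance in kb from the lower gene end and cut 5 kb outside the gene. Green bars are H3K4me3, purple bars H3K4me3 after siKDM5BC, red bars H3K27me3, and grey shading is the gene. NNAT peaks join in morulae and blastocysts, PEG3 has internal peaks at the 1-cell to 8-cell stages, and NDN has no H3K27me3 peak in any of 12 libraries.

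Ranked by mean H3K4me3 covered length, NNAT and NAP1L5 were highest in blastocysts, PEG3 and NDN in morulae and MAGEL2 at the 8-cell stage. MAGEL2 libraries overlapped between all neighbouring groups of that order, except siKDM5BC and the 2-cell stage. Among coding genes, NNAT stood at the mean percentile 98.4 of covered length in morulae and 99.3 in blastocysts. PEG3 stood at 79.8 and 76.5, MAGEL2 at 70.0 and 66.8, NDN at 43.3 and 41.9 and NAP1L5 at 35.2 and 42.4. Coverage at NNAT, PEG3 and MAGEL2 was thus above that of the median coding gene, and at NDN and NAP1L5 below it.

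Across the 18 H3K4me3 libraries the closest pair of the 5 genes was NNAT and NAP1L5 (Pearson r = 0.813), and the least alike was NDN and MAGEL2 (r = 0.172), although these are neighbours. The libraries share stage and peak number, so these are descriptions. By the same measure SLC25A33 (r = 0.970) was among the coding genes most like NNAT. Those most like PEG3 were ATG4D (r = 0.948) and TMBIM1 (r = 0.929). NAP1L5 was most like IRF9 (r = 0.878) and ARHGAP33 (r = 0.872). NDN was most like LOC102158906 (r = 0.915) and MECR (r = 0.901), and MAGEL2 was most like PTPN23 (r = 0.881) and NUDCD1 (r = 0.821). None of the genes named here is among the listed imprinted genes.

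Peak strength, the authors' fold enrichment of the strongest peak within 5 kb of a gene end, also differed between stages. It is set by the caller against each library's own background, so values are compared with the median coding gene of the same library. At NDN it was 3.39 and 3.63 in 2-cell libraries and 9.89 and 9.63 in blastocyst libraries. The median gene with a peak was at 3.53 and 3.68 and then at 8.98 and 9.39. In morulae NDN was at 6.54 and 6.30, below medians of 9.16 and 8.21. NDN was thus slightly below the median in 2-cell libraries and above it in blastocysts, while their width was 1523 and 1241 bp and then 1830 and 1963 bp. MAGEL2 was below the median, at 4.88 and 5.12 in blastocysts, where 12.9% and 13.6% of coding genes with a peak were weaker. NNAT, the widest, was at 7.20 and 7.74, also below the median. In 4-cell libraries the strongest peak in reach of NNAT was at 6.05 and 4.62, above medians of 4.90 and 4.43. It lay at the higher end of BLCAP, and the peaks at the site within NNAT were at 4.18 and 3.39, below the medians.

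**Figure D3:**
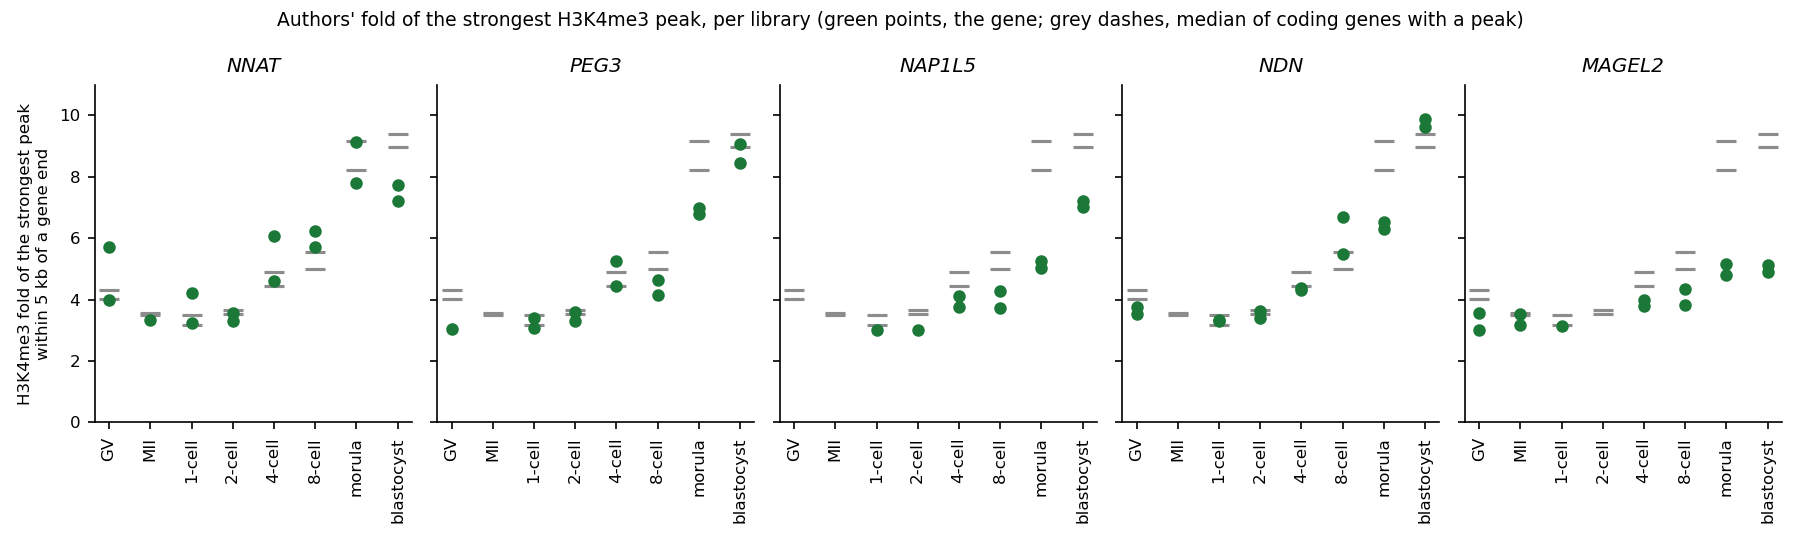
Authors' fold of the strongest H3K4me3 peak within 5 kb of a gene end (y axis) in each library of the 8 untreated stages (x axis). Green points are the gene, absent where it has no peak, and grey dashes are the median of coding genes with a peak in that library. NDN is above the dashes in blastocysts (9.89 and 9.63) and below them in morulae, and MAGEL2 is below them in morulae and blastocysts (4.79 to 5.17).

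H3K27me3, which the choice of genes did not use, separated them. NDN had no H3K27me3 peak within 5 kb of its ends in any of 12 libraries, NAP1L5 had one only in blastocysts, NNAT was covered in both libraries only of morulae and blastocysts, and PEG3 in both libraries of the 4-cell stage, morulae and blastocysts. MAGEL2 was marked in 11 of 12 libraries. From MII oocyte to blastocyst the covered length rose at NNAT, PEG3 and MAGEL2. In that comparison 37.5% of 10519 genes tested were higher and 15.9% lower, with a median difference of 0.286 kb over all of them. NAP1L5 passed the filter on peaks only through its blastocyst libraries and so had to differ there, and it is described without a test. The test was limma on covered kb with Benjamini-Hochberg adjustment over all genes tested. The H3K27me3 lists covered 71.4 and 61.9 Mb in MII oocytes, 2.01 and 1.28 Mb at the 2-cell stage, 10.8 and 13.6 Mb in morulae and 84.7 and 109 Mb in blastocysts, and the part of this in the differences was not tested. After scaling to it, NNAT, PEG3 and MAGEL2 no longer passed from MII oocyte to blastocyst (limma adjusted p = 0.752, 0.248 and 0.994), and 56.3% of all calls were higher in place of 70.2%. With peaks of a fold of 3.5 or more only, MAGEL2 alone passed.

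NNAT was at 0 bp of H3K27me3 in the 6 libraries of the MII, 2-cell and 8-cell stages. It was at 0 and 1751 bp at the 4-cell stage, 239 and 2183 bp in morulae and 3116 and 2545 bp in blastocysts. Both blastocyst libraries lay above all others. From MII oocyte to blastocyst the covered length was higher by 2.83 kb (SE 0.695, 95% interval 1.22 to 4.44 kb, limma adjusted p = 0.00899). From morula to blastocyst the difference was 1.62 kb (limma adjusted p = 0.0989) and missed the threshold of 0.05. The blastocyst H3K27me3 peaks lay within NNAT and at the higher end of BLCAP, and BLCAP itself was at 1602 and 972 bp.

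PEG3 was at 0 and 643 bp of H3K27me3 in MII oocytes, 0 and 0 bp at the 2-cell stage, 568 and 2283 bp at the 4-cell stage and 0 and 1338 bp at the 8-cell stage. It was at 2769 and 3701 bp in morulae and 3386 and 5391 bp in blastocysts. Both morula libraries exceeded every earlier library. The MII to blastocyst difference was 4.07 kb (SE 0.828, 95% interval 2.15 to 5.98 kb, limma adjusted p = 0.00355). The morula to blastocyst difference was 1.15 kb, with a 95% interval of -0.759 to 3.07 kb (limma adjusted p = 0.323), and the libraries overlapped. Scaled to covered length, this difference turned to lower (limma adjusted p = 0.00031). On that scale 594 of 10519 genes tested were lower and 1815 higher.

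NAP1L5 was at 743 and 705 bp of H3K27me3 in blastocysts and at 0 bp in all 10 other libraries. The difference of 0.724 kb from MII oocytes carries no test, since the gene had no peak at any other stage. The peaks of the 2 libraries did not overlap each other, at 67 to 809 bp and at 912 to 1616 bp above the lower end. The second, with a fold of 2.75 and a −log10 q of 1.01, was at the floor of its list. NDN, with 0 bp in every library, could not be tested.

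MAGEL2 was at 1727 and 2332 bp of H3K27me3 in MII oocytes, 279 and 0 bp at the 2-cell stage, 2849 and 3784 bp at the 4-cell stage and 1769 and 3805 bp at the 8-cell stage. It was at 1297 and 2789 bp in morulae and 4658 and 4952 bp in blastocysts. Both 2-cell libraries lay below all others, and both blastocyst libraries above all others. The blastocyst value was higher than that of MII oocytes by 2.78 kb (SE 0.746, 95% interval 1.05 to 4.50 kb, limma adjusted p = 0.0136). It was higher than that of morulae by 2.76 kb (95% interval 1.04 to 4.49 kb, limma adjusted p = 0.0167), a step at which 44.3% of genes tested were higher. From MII oocyte to the 2-cell stage the difference was -1.89 kb (95% interval -3.61 to -0.167 kb). Its limma adjusted p of 0.134 missed the threshold, and the unadjusted p was 0.0354. At that step 23.7% of genes tested were lower, and PEG3 and MAGEL2 did not pass. NNAT was at 0 bp in both groups and could not be lower. The rise from MII oocyte missed the threshold without MII replicate 1 (limma adjusted p = 0.0740) or blastocyst replicate 2 (0.0592), and the rise from morula without morula replicate 1 (0.114) or blastocyst replicate 2 (0.0763). On the log2(bp + 500) scale both rises missed it (limma adjusted p = 0.0572 and 0.0530). Scaled to covered length, the difference from morula turned to lower, at -4.12 (limma adjusted p = 0.427).

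MAGEL2 had H3K27me3 in both libraries of the 4-cell, 8-cell and morula stages, when few genes had it. A peak within 1 kb in both 4-cell libraries was found for 2.46% of coding genes, in both 8-cell libraries for 0.796% and in both morula libraries for 2.77%. In covered length MAGEL2 stood at the mean percentile 99.6 at the 4-cell and 8-cell stages, 98.1 in morulae and 96.2 in blastocysts. Only 10 coding genes (0.0513%) were marked in all 8 libraries from the 4-cell stage on, and MAGEL2 and MKRN3 were 2 of them. With both MII libraries added, 5 genes (0.0257%) remained, MAGEL2 but not MKRN3 among them. Neither pattern includes the 2-cell libraries, where MAGEL2 was at 279 and 0 bp. These patterns were picked after the values had been seen. MKRN3 was at 0 bp of H3K27me3 in all MII and 2-cell libraries and at 1964 and 1226 bp at the 4-cell stage. MAGEL2 and MKRN3 do not share peaks, and NDN, about as far from MAGEL2 as MKRN3 is, had none.

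**Figure D4:**
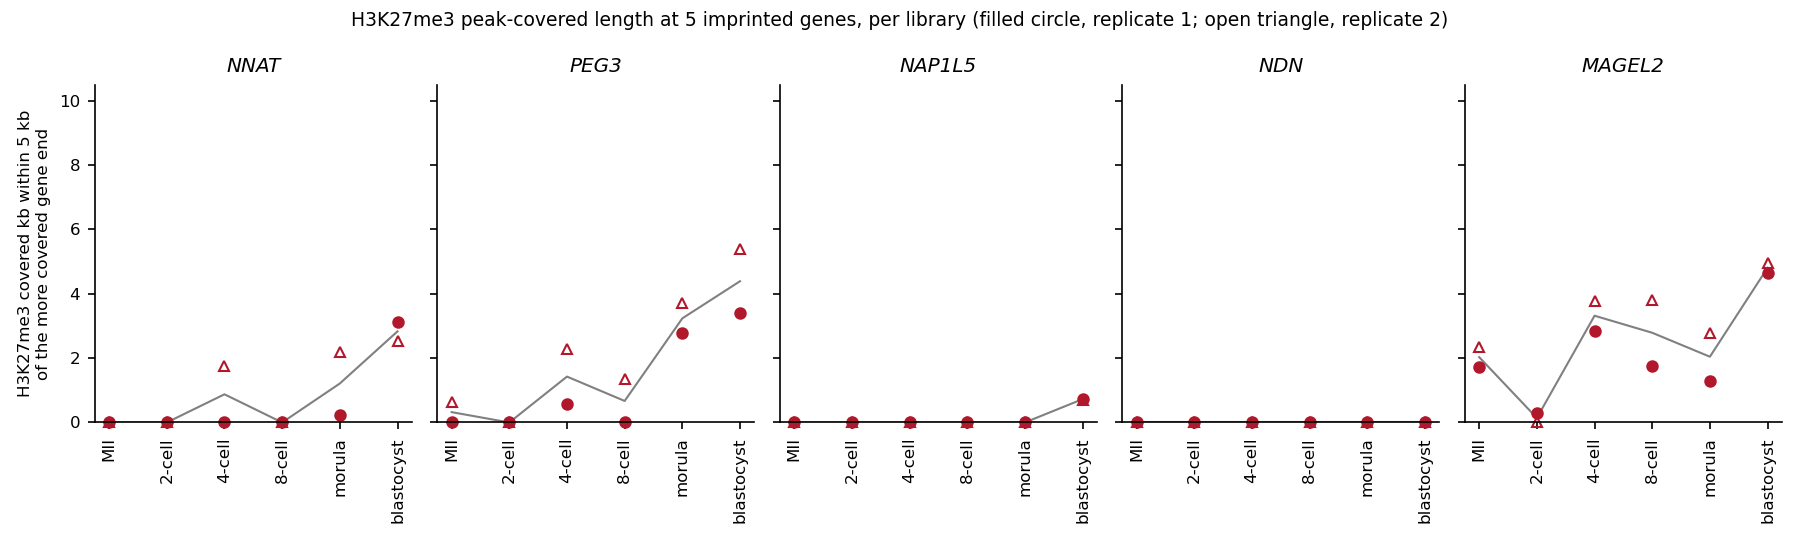
H3K27me3 peak-covered kb within 5 kb of the more covered gene end (y axis) for each library of the 6 stages profiled (x axis). Circles are replicate 1, triangles replicate 2, and grey lines join the means. NDN stays at 0, NAP1L5 leaves 0 only in blastocysts, and MAGEL2 is near 0 only at the 2-cell stage (279 and 0 bp).

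By the call within 1 kb, NNAT, PEG3 and NAP1L5 gained H3K27me3 from MII oocyte to blastocyst, against 9.56% of all coding genes. Of the 40 other imprinted genes, 9 gained it at the same step. All 9 were at 0 bp in MII oocytes. In blastocysts GNAS was at 4012 and 4093 bp, MKRN3 at 4493 and 3456 bp and DIRAS3 at 3238 and 2459 bp. MEST was at 2039 and 2547 bp, KLF14 at 1858 and 1564 bp, and PEG10 and SGCE, which share a window, both at 1562 and 2425 bp. BLCAP, given above, and UBE3A, at 1002 and 1279 bp, were lowest. From morula to blastocyst NAP1L5 alone of the 5 gained the mark, as did 7 of the 40 others and 10.8% of coding genes. From MII oocyte to the 2-cell stage 15 of the 40 others and 11.1% of coding genes lost it, and 0 of the 5 did. Only genes marked in both MII libraries could lose it. These were MAGEL2 alone of the 5, the same 15 others and 11.4% of coding genes. MAGEL2 had a peak within 1 kb in 1 of the 2-cell libraries.

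In blastocysts NNAT, PEG3 and MAGEL2 had a stretch covered in both libraries of both marks. It was 3105 bp long at PEG3, 2980 bp at MAGEL2 and 1924 bp at NNAT. At PEG3 this was 76.9% of the length covered by H3K4me3 in both libraries and 91.7% of that covered by H3K27me3. At MAGEL2 it was 100% of the H3K4me3 length, and at NNAT 17.4% of it. At NAP1L5 the marks overlapped by 165 to 743 bp in each of the 4 pairs of libraries, but no stretch was covered in all of them, because the H3K27me3 peaks of its 2 libraries lay apart. NDN had no overlap. Overlap began earlier at MAGEL2, with 562 bp in MII oocytes, 0 bp at the 2-cell stage, 526 bp at the 4-cell stage, 1769 bp at the 8-cell stage and 565 bp in morulae.

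The overlap at PEG3 was 1656 bp at the 4-cell stage, where it lay on the internal peaks, and 2769 bp in morulae, where it lay at the higher end. Counted within 1 kb, both marks in all 4 blastocyst libraries were found at NNAT, PEG3, NAP1L5 and MAGEL2, against 14.1% of coding genes and 12 of the 40 other imprinted genes. At the 8-cell stage this held for MAGEL2 alone of the 5, for 0.652% of coding genes, and for RTL1 and MKRN3 among the others. All 5 had H3K4me3 in both libraries of both stages, which belong to the later stages of the choice. Among coding genes 73.6% had it in blastocysts and 68.1% at the 8-cell stage. For the 5 genes these counts therefore repeat those of H3K27me3 alone. With native chromatin from pooled cells, both marks over the same DNA may lie on different alleles or cells, which the lists cannot tell apart.

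The knockdown comparison addressed H3K4me3 at the 4-cell stage when KDM5B and KDM5C, which remove methyl groups from H3K4, were targeted. NNAT, PEG3, NAP1L5 and NDN did not pass the test against untreated 4-cell embryos, and at an unadjusted p under 0.05 the count was also 0. Over the same libraries 35.2% of 18229 coding genes tested had longer H3K4me3 coverage after siKDM5BC and 0.0878% shorter, and the median gene was longer by 1.41 kb. Of the 40 other imprinted genes, 15 were longer and 0 shorter (limma, adjusted over all genes). Over all genes 6437 passed, 3533 without siKDM5BC replicate 1 and 2081 without 4-cell replicate 2. MAGEL2 is described without a test, because its gain from the 2-cell to these same 4-cell libraries chose it. The other genes have the MII to blastocyst gain, but their 4-cell values also belong to the later stages of the choice. The peak lists hold no measure of KDM5B or KDM5C RNA, so the knockdown itself was not checked.

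NNAT was at 3605 and 2500 bp after siKDM5BC against 3450 and 1015 bp untreated, a difference of 0.820 kb (95% interval -1.19 to 2.83 kb, limma adjusted p = 0.502). PEG3 was at 3449 and 2526 bp against 3195 and 2778 bp, a difference of 0.00100 kb (-1.13 to 1.14 kb, limma adjusted p = 1). NAP1L5 was at 1387 and 0 bp against 862 and 918 bp, a difference of -0.197 kb (-1.30 to 0.912 kb, limma adjusted p = 0.791). The treated libraries of these genes overlapped with the untreated ones or enclosed them. NDN was at 1939 and 686 bp against 1636 and 576 bp, a difference of 0.207 kb (-0.960 to 1.37 kb, limma adjusted p = 0.791). For PEG3, NAP1L5 and NDN the upper end of the interval stayed under the all-gene median of 1.41 kb.

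MAGEL2 was at 929 and 233 bp after siKDM5BC against 2933 and 732 bp untreated, a difference of -1.25 kb. The libraries overlapped. MKRN3, next to it, was at 453 and 0 bp against 1024 and 515 bp (-0.543 kb), and is named for the same 2-cell to 4-cell gain. Inside PEG3 both siKDM5BC libraries covered the stretch 3436 to 7527 bp above the lower end. The internal stretch farthest from that end, shared by both untreated 4-cell libraries, had a peak in siKDM5BC replicate 1 only.

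By the call within 1 kb none of the 5 genes lost H3K4me3 between untreated and siKDM5BC 4-cell embryos, against 0.149% of coding genes. A gain, called for 4.28% of coding genes, was not possible, since all 5 were marked in both untreated libraries. With peaks of −log10 q 3 or more only, PEG3 was at 0 bp in both siKDM5BC libraries and its difference was -2.99 kb (limma adjusted p = 1.43e-05). Its higher-end peaks in those libraries had a −log10 q of 2.83 and 2.45, just under that minimum, against 5.51 and 3.28 untreated. At this setting 42 of 16192 genes tested were lower. Divided by each library's total covered length, which was larger in the siKDM5BC lists (164 and 179 Mb) than in the 4-cell lists (31.6 and 56.4 Mb), PEG3, NAP1L5 and NDN were lower and passed. On that scale 5927 of 18229 genes tested were lower and 430 higher. Of all calls 6.76% were higher, against 99.8% without scaling, and the all-gene median was -1.26.

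**Figure D5:**
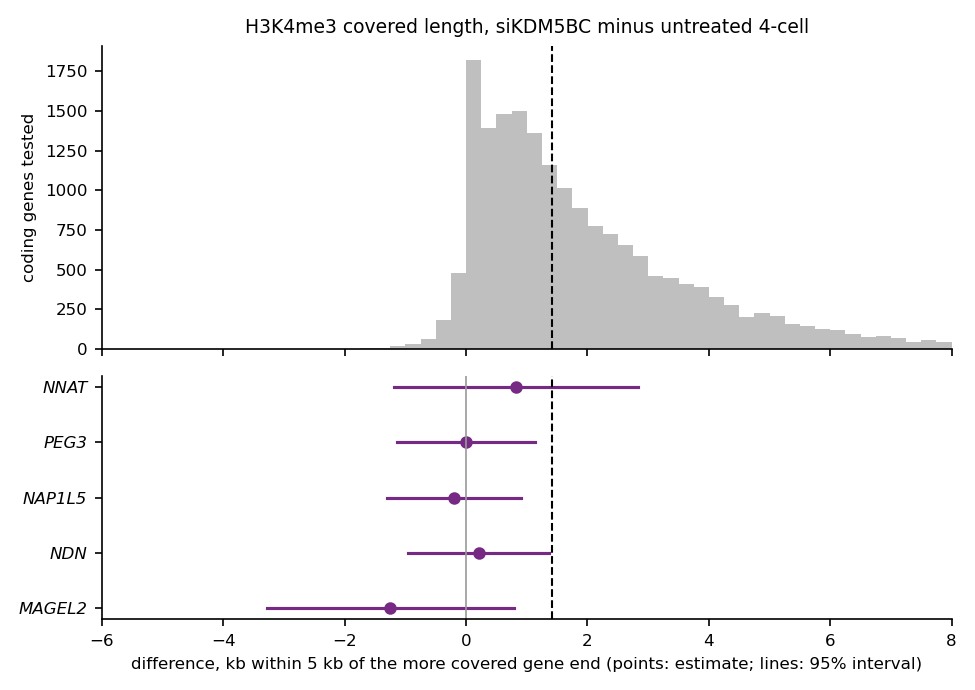
Difference in H3K4me3 covered kb, siKDM5BC minus untreated 4-cell. The upper panel counts coding genes tested per 0.25 kb, cut off at 8 kb, and the lower panel gives the estimate (point) and 95% interval (line) of each gene. The dashed line is the all-gene median, 1.41 kb, which all 5 estimates lie below. The line of MAGEL2 is no test, since its untreated values chose it. The untreated values of the other genes also belong to the later stages of the choice.

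Neighbouring coding genes with an end within 100 kb did not all follow the 5 genes. FAM13A, the nearest gene beyond HERC3, was at 0 bp of H3K4me3 in all 4 oocyte libraries, at 1901 and 1855 bp in morulae and at 2621 and 2215 bp in blastocysts. ZIM2, a zinc finger gene 88225 bp from PEG3, was marked in both MII libraries, at 471 and 859 bp. LOC100522375, 8003 bp below PEG3, was marked in both 2-cell libraries, at 1617 and 832 bp, and was at 0 bp in all 4 libraries of the 4-cell and 8-cell stages. In siKDM5BC embryos it was at 2891 and 3074 bp, while PEG3 next to it differed by 0.00100 kb. LOC110261077 was at 2386 and 6051 bp in MII oocytes, when PEG3 was at 0 bp, through peaks near its other end.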

How the data were processed

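The authors deposited 1 broad peak list per library. Alignment with Bowtie2 2.4.1, peak calling with MACS2 and the build susScr11 come from the submitters' processing notes. The sources used here do not give the settings of the caller, an input control or the filters on reads. Deposited files have no header line and were read in broadPeak order, with peak starts and ends in bp. Their fold column is a ratio to background from the caller, and the authors' −log10 p and −log10 q columns give 1 value per peak. Sequences other than chromosomes 1 to 18 and X were left out.

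The 5 genes and all lists were chosen with earlier results of these data known. Of 49 other imprinted genes listed, 40 were matched in the RefSeq gene table, as were 5 of 6 cumulus and granulosa markers. Also named were coding genes within 100 kb, other imprinted genes called in a step with any of the 5, and the 2 genes with the highest r among those reaching 50% of that gene's highest coverage; 1 of these is not reported here. No promoter sequence was analysed here.

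Covered length was computed with Python 3.11.15 and tested with limma 3.58.1 (eBayes, trend) over all libraries of a mark, for genes with a peak in 2 or more libraries. Adjusted p-values under 0.05 were called. Tested on simulated data, shifts of 2 and 4 kb were recovered for 19% and 67% of genes (siKDM5BC) and for 82% to 87% and 95% to 97% (H3K27me3). False calls made up 7.53% and 12.4% to 13.7% of calls, above the nominal level. An exact permutation test of 2 libraries against 2 cannot go below p = 0.333 and was not used. Same-numbered libraries did not deviate together in the 4 contrasts (r = -0.0433 to 0.0434), so numbers were not taken as pairs. Over all pairs of groups r ran from -0.175 to 0.252 for H3K4me3 (36 pairs) and from -0.0690 to 0.0921 for H3K27me3 (15 pairs).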

Additional observations from a re-analysis of the deposited data

How the results depend on the processing

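In MII oocyte to blastocyst H3K4me3, 4 or 5 of the genes were called gained under every alternative tried. With peaks of −log10 q 3 or more the count was 5, beside 13276 coding genes in place of 1198, since few MII peaks reach that minimum. From the 2-cell to the 4-cell stage the count was 1. It was 0 with 50% of the window covered, 2 (PEG3 and NDN) at −log10 q 3, 3 at a fold of 3.5, and 1 to 3 with single libraries left out (NNAT and NAP1L5 added without 2-cell replicate 2). Over these settings 135 to 6775 coding genes were called gained, and 157 in the main one. These values chose the genes, so nothing is read from the counts. Between 4-cell and siKDM5BC the count of gains or losses was 0, but 1 at −log10 q 3 (PEG3), 1 at a fold of 3.5 (MAGEL2) and 0 to 1 with single libraries left out (NAP1L5 without siKDM5BC replicate 1). Coding genes called in that comparison ran from 602 to 2605, and were 862 in the main setting.

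The counts below include MAGEL2 in siKDM5BC and NAP1L5 in H3K27me3, which the report describes without a test. For siKDM5BC against 4-cell by limma, 0 genes passed, 1 at −log10 q 3 and 4 after scaling to covered length. Among all genes tested, 42 of 16192 were lower at −log10 q 3 and 5927 of 18229 after scaling. Scaled differences were -3.02 (NNAT), -5.72 (PEG3) and -1.68 (NDN). At −log10 q 3 NNAT was at -0.611 and PEG3 at -2.99, and on the log2(bp + 500) scale PEG3 was at -0.00975. With single libraries left out NNAT ran from -0.398 to 2.04 kb, PEG3 from -0.461 to 0.463, NAP1L5 from -0.890 to 0.497 and NDN from -0.420 to 0.833, and 0 passed.

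For H3K27me3 from MII oocyte to the 2-cell stage, 0 passed, but 1 (MAGEL2) on the log2 scale. MAGEL2 was at 0.140 at −log10 q 3 and 1.41 scaled. From MII oocyte to blastocyst 4 passed, 1 at −log10 q 3, 1 at a fold of 3.5 (MAGEL2 in both), 1 scaled (NAP1L5) and 2 to 4 with single libraries left out. MAGEL2 missed the threshold without MII replicate 1 (limma adjusted p = 0.0740), without blastocyst replicate 2 (0.0592) and on the log2 scale (0.0572). Scaling moved the share of higher calls from 70.2% to 56.3%. From morula to blastocyst 2 passed, 1 on the log2 scale (NAP1L5), 1 at −log10 q 3, 1 at a fold of 3.5, and 0 to 3 with single libraries left out (0 without blastocyst replicate 2). At a fold of 3.5 NNAT was at -0.570 and PEG3 at -0.540. Scaled, NNAT was at -2.25, PEG3 at -8.06 (limma adjusted p = 0.00031) and MAGEL2 at -4.12, and higher calls fell from 99.9% to 75.3%. Among all genes tested, 594 of 10519 were lower on that scale. The cause of these changes was not tested. NNAT, PEG3 and NAP1L5 had too few H3K27me3 peaks at −log10 q 3 to be tested.

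With the replicate number as a block, 0, 0, 4 and 2 genes passed in the 4 contrasts, as without it, and 3911 genes were higher from MII oocyte to blastocyst in place of 3943. Without the filter on peaks, with a 2.5 kb window and with both ends joined, every count of passing genes stayed within 1.5 times of its value above.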
